A study of Equus caballus with 4 samples.

Results

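The genes described here are the E2 ubiquitin-conjugating genes and the F-box genes on a horse gene expression microarray. They were chosen by name, as the probes whose gene symbol in the files starts with UBE2, FBXO, FBXL or FBXW. The muscle ligase genes *fbxo30*, *fbxo32* and *fbxo40* were left out by the rule. This gave 78 genes of 24998 gene names on the array, of which 25 were E2 genes with 48 probes and 53 were F-box genes with 78 probes. The rule itself uses names and no measured values.

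The cultures were differentiating satellite cells of the horse (ESC), stem cells of muscle that multiply and fuse into myotubes, taken on day 3 of differentiation. The cells came from m. semitendinosus of young, healthy male horses. The HMB-treated group received 50 µM HMB (β-hydroxy-β-methylbutyrate, a metabolite of leucine) for 24 h, with 3 mM H2O2 added for the final 1 h. Control cells were given the same H2O2 and no HMB, so that no group was free of H2O2. Each of 4 arrays carried Cy5-labeled RNA of the HMB-treated group together with Cy3-labeled RNA of the control. The values are log2 ratios of Cy5 over Cy3, so that values above 0 stand for more signal with HMB. The dyes were not swapped, so treatment and dye cannot be told apart, and all arrays lay on 1 slide. In the labels, the control channel has an identical replicate number on all arrays, whereas the methods give n = 4 for the control cells. If it was 1 RNA, all errors given here lack the variation among controls. The methods describe a culture selected for its viability and fusion index, so n = 4 need not mean 4 horses. In a culture of mixed cells, fewer cells of a type and less RNA per cell cannot be told apart.

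Ubiquitin is attached to proteins in a cascade. An E1 enzyme activates it, an E2 enzyme carries it, and an E3 ligase brings the loaded E2 to the protein to be marked, often for destruction by the proteasome. F-box proteins are the exchangeable receptors of the SCF ligases, in which SKP1 ties the receptor to the scaffold CUL1 and RBX1 binds the E2. Some E2 enzymes carry a relative of ubiquitin instead, such as NEDD8 or the interferon-induced ISG15. In skeletal muscle, ubiquitin ligases are best known for the breakdown of contractile proteins during atrophy.

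The probes behind several results are shown first, since a ratio on these arrays belongs to a probe of 60 bases and not to a whole transcript. Their sequences are from the array files, 5′ to 3′, with positions on the horse build EquCab1. The files name the gene of a probe, but give no exon. The first probe, for the E2 gene with the largest ratio, was placed on the minus strand of chrUn:243360325-243362333. Its 60 bases span 2009 bases of the genome, so the placement is split.
*ube2l6*: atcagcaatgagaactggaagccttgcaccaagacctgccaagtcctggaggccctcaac
The outermost of the 5 tested *ube2c* probes show that its probes were shifted by single bases. Capitals mark the 56 bases that all 5 share, and the first was placed on the plus strand of chr22:34838651-34839192.
*ube2c*, one end: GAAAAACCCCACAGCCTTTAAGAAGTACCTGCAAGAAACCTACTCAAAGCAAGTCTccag
*ube2c*, other end: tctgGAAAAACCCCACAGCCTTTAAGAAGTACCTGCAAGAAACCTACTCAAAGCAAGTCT
The 5 probes of *ube2t* were laid out in the same way, and capitals again mark the 56 shared bases. The probe printed first was placed on the minus strand of chr30:19372036-19372095.
*ube2t*, one end: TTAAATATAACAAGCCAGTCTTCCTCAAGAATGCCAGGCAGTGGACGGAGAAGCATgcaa
*ube2t*, other end: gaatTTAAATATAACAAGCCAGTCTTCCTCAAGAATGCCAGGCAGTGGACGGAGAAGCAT
Among the F-box genes, the gene with the lowest mean ratio had a single probe, on the minus strand of chr13:6204747-6204806.
*fbxl19*: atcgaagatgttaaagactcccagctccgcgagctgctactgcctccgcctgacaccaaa
The probe of *fbxo3* lay on the plus strand of chrUn:250773861-250773920.
*fbxo3*: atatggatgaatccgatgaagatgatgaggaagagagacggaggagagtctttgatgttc

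Of the non-control spots, 57.6% to 60.6% were well above background in the Cy3 channel and 55.2% to 61.8% in the Cy5 channel, and across genes the ratios of 2 arrays correlated with r between 0.830 and 0.917. A gene was tested if, on each array, a probe of it was well above background in the Cy3 channel, the Cy5 channel or both, and 14107 of 24998 gene names (56.4%) passed. The muscle identity of the cultures was visible in the desmin, myosin and creatine kinase genes, since all 8 myogenic markers on the array were well above background in the control. Of these 8, 6 were lower with HMB, with a median ratio of -1.02 over the list. Of the 6, *myf6* was not well above background on any array in the HMB channel. The summed signal of the list was 165965 to 186724 in the control channel and 63120 to 100253 in the HMB channel. Of 6 tested fibroblast markers, 4 were higher, with a median of 0.61, and their summed signals of 146331 to 173143 and 143264 to 226737 overlapped. Of 7 leukocyte markers on the array, 2 were tested and *cd68* was higher, whereas *itgam*, *aif1*, *cd3e* and *cd79a* were not above background in either channel on any array. None of 5 endothelial markers on the array could be tested, and *pecam1*, *cdh5*, *vwf* and *kdr* were above background on no array. These lists moved with the treatment in the same samples as the members. Their part in the ratios below was not tested.

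Few of the E2 genes differed between the groups, the share of F-box genes that differed was near that of all genes, and the sizes were small with 1 exception. A gene was called at a limma adjusted p of 0.05 or less and a fold change (FC) of 1.3 or more. Among all tested genes, 28.6% were called. In the E2 group, 3 of 24 tested genes were called (12.5%), namely *ube2l6* as higher and *ube2g1* and *ube2h* as lower in the HMB-treated group. In the F-box group, 9 of 35 tested genes were called (25.7%), 3 as higher and 6 as lower. Over all genes, 12.4% were called higher and 16.2% lower, so that 43.4% of the calls were higher. That split depended on the scaling. It was 6.26% when the arrays were scaled to spike-in RNA, which lowered the median of all genes by 0.49, and 57.1% with normexp background correction and loess. With normexp and loess, the called members were *ube2l6* and *fbxo7*. That alternative added an offset of 50 to the signals, which draws ratios toward 0, most of all those of dim probes. The FC threshold of 1.3 was not changed for it, so a call lost there can reflect this offset. With treat, a limma test against an FC of 1.3 in place of 0, they were *ube2l6* and *ube2h*.

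**Figure D1:**
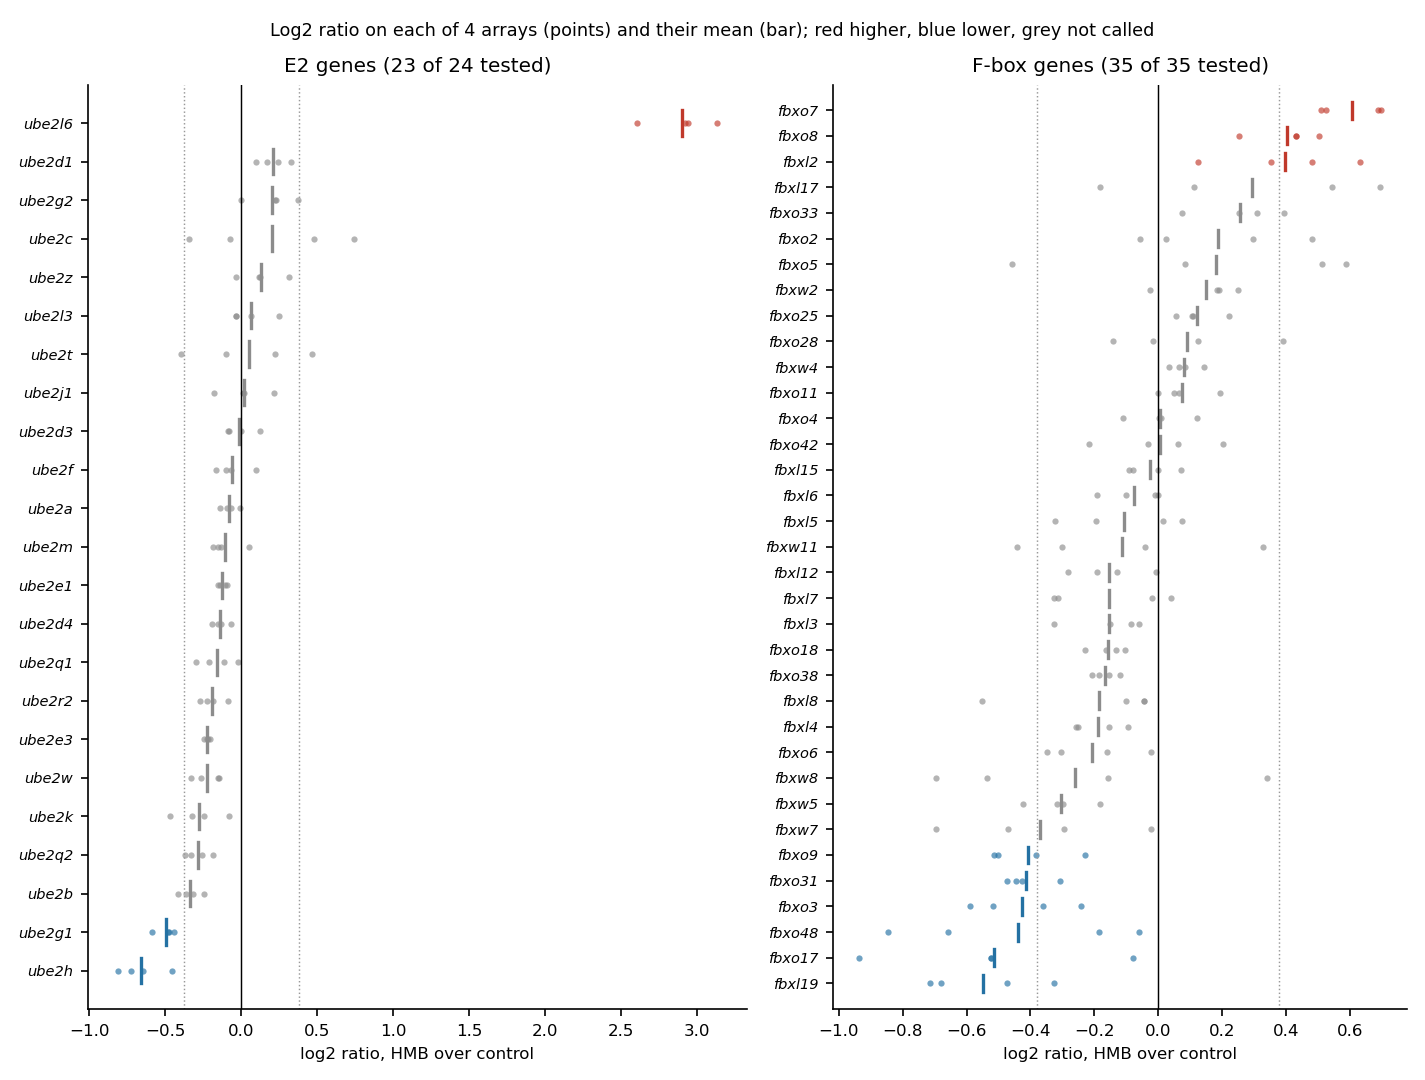
Log2 ratio (HMB over control, horizontal axis) of the tested E2 genes (left, 1 of 24 not shown) and F-box genes (right) on each of 4 arrays (points) with the mean (bar). Red and blue mark genes called higher and lower, and dotted lines an FC of 1.3. One E2 gene, *ube2l6*, stands at 2.90, whereas all other members lie between -0.66 and 0.61 on the deposited scaling. With spike-in scaling, the means of all tested members other than *ube2l6* and *fbxo7* are negative, beside a median of -0.55 over all tested genes.

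The median ratio was -0.09 for the E2 genes and -0.11 for the F-box genes, beside -0.06 for all tested genes. On the 4 arrays, the E2 median was -0.07, -0.10, -0.12 and -0.10, and the F-box median was -0.08, -0.09, -0.03 and -0.02. The E2 median was thus above the F-box median on array 1 and below it on the others, by differences of 0.02, -0.01, -0.09 and -0.08. The difference between the medians of the mean ratios was 0.02, smaller than the spread of the array differences (SD 0.05, n = 4). It was negative in 3 of 17 alternatives of the processing. Of these 17, spike-in scaling and the changes of test cannot move it, so the count says little on its sign. The families did not differ in their central value beyond the spread of the array differences. They differed in how many members could be measured, since 24 of 25 E2 genes (96%) but 35 of 53 F-box genes (66.0%) were tested. The median absolute ratio was 0.18 in the E2 group, 0.19 in the F-box group and 0.23 over all genes. The median SD over arrays was 0.10, 0.13 and 0.16, respectively. All arrays gave ratios of 1 sign in 14 of 24 E2 genes (58.3%) and 22 of 35 F-box genes (62.9%), close to the 60.5% of all genes.

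**Figure D2:**
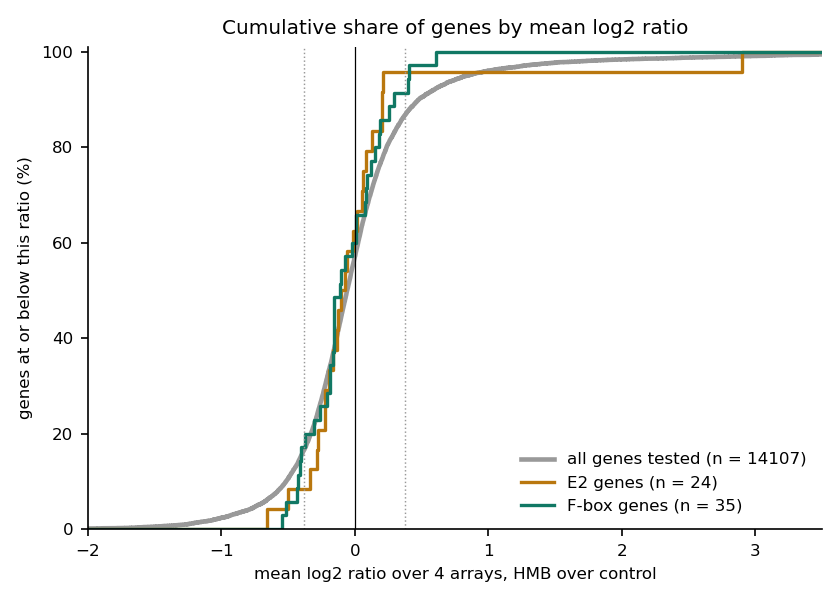
Share of genes (vertical axis, percent) at or below each mean log2 ratio (horizontal axis, HMB over control) for 24 E2 genes, 35 F-box genes and all 14107 tested genes. Dotted lines mark an FC of 1.3. The member curves run steeper than the curve of all genes, with median absolute ratios of 0.18 and 0.19 against 0.23, and the single step of the E2 curve at the right is *ube2l6* at 2.90.

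Among the 4 E2 genes for ubiquitin-like proteins, 1 was higher with HMB. The gene *ube2l6* encodes the E2 that passes ISG15, an interferon-induced relative of ubiquitin, to its targets. Its log2 ratios were 3.14, 2.94, 2.93 and 2.61. All arrays lay far above 0 and close together, and the mean of 2.90 ± 0.22 (SD, n = 4) corresponded to an FC of 7.48 (limma, adjusted p = 6.3e-06). The ratio was 2.00 with normexp and loess and 2.42 with spike-in scaling, and the call held in all 17 alternatives. Its probe was well above background in both colors throughout.

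The other 3 genes of that group were not called. Among them, the NEDD8 E2 genes *ube2m* and *ube2f* had means of -0.10 and -0.06.

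All 5 listed partners of *ube2l6* in the ISG15 system were higher with HMB, *uba7* as a bound only. The modifier gene *isg15* had ratios of 3.23, 3.20, 3.28 and 2.82 (mean 3.13, adjusted p = 4.4e-06). The ISG15 ligase gene *herc5* had ratios of 3.73, 5.82, 5.64 and 5.20, and its relative *herc6* had a mean of 4.82 ± 0.48. The mean of *usp18*, which encodes the protease that removes ISG15, was 4.12 ± 0.35. The E1 gene *uba7* passed the filter only through the HMB channel, since its control signal was not well above background on any array. For it a bound is given in place of a test, at least 16.2-fold higher. This bound was computed after normalization of both channels between arrays. It sets the mean HMB signal against the lowest Cy3 signal of probes well above background. Array 4 gave the lowest ratio for *ube2l6*, *isg15*, *herc6* and *usp18*, but not for *herc5*.

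Of the ubiquitin E2 genes, 2 were lower. The gene *ube2h* encodes the E2 of the CTLH ligase complex. Its ratios were -0.81, -0.46, -0.64 and -0.73, below 0 on every array, with a mean of -0.66 ± 0.15 (FC 1.58, adjusted p = 0.0012). It was measured by 2 adjacent probes that do not overlap, with means of -0.70 and -0.62, and both were called. With normexp and loess the mean was -0.37 and below the FC threshold. The gene *ube2g1* encodes an E2 that extends ubiquitin chains, among others together with cullin-based ligases. Its ratios of -0.48, -0.44, -0.59 and -0.48 lay close together, with a mean of -0.50 ± 0.06 (FC 1.41, adjusted p = 0.0015), and the mean was -0.29 with normexp and loess. Its relative *ube2g2*, an E2 of protein quality control in the endoplasmic reticulum, had ratios of 0.38, 0.22, -0.0013 and 0.23 and was not called. Of the 4 tested E2 genes of the endoplasmic reticulum group, which also held *ube2j1* with a mean of 0.02 and *ube2k* with a mean of -0.28, *ube2g1* was the single one called.

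Among the uncalled E2 genes chosen by symbol, the DNA repair gene *ube2b* was closest to a call. It encodes a homolog of yeast RAD6, which marks PCNA and histone H2B. Its ratios were -0.32, -0.41, -0.36 and -0.25, all below 0, with a mean of -0.34 ± 0.07 and an adjusted p of 0.0071. The FC of 1.26 was below the threshold. Its 2 probes do not overlap. Their means were -0.44 and -0.23, and the first of them was called. The near-identical RAD6 homolog *ube2a* had a mean of -0.08 ± 0.05.

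The *ube2d* and *ube2e* genes encode broadly used E2 enzymes that work with many ligases. Of their 5 tested members, 0 were called with limma, the test of the study's methods or treat. With limma, 28.6% of all tested genes were called, and 0 calls in 5 genes do not set them apart from that share. Among them, 2 had an unadjusted p below 0.05, and both had an adjusted p below 0.05 with an FC below 1.3. These were *ube2d1* with a mean of 0.21 ± 0.10 and *ube2e3* with -0.22 ± 0.02. The SD of *ube2e3* was the lowest of the tested E2 genes. The means of *ube2d3*, *ube2d4* and *ube2e1* were -0.01, -0.14 and -0.12. *Ube2l3*, which serves HECT and RBR ligases, had a mean of 0.06, and *ube2r2*, a partner of SCF ligases, had a mean of -0.19. Altogether, the 21 E2 genes not called had means between -0.34 and 0.21, and 6 of them had an adjusted p below 0.05. With called genes included, 37.5% of the E2 genes and 34.3% of the F-box genes passed the limma adjusted p. The share over all tested genes was 45.4%.

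The E2 genes of cell division varied from array to array more than any other E2 gene. The gene *ube2c* encodes the E2 that starts ubiquitin chains for the anaphase-promoting complex (APC/C), the ligase that takes cells out of mitosis. Its ratios were 0.74, 0.48, -0.34 and -0.07. They were positive on arrays 1 and 2 and negative on arrays 3 and 4, so that the mean of 0.20 ± 0.50 was smaller than the SD (adjusted p = 0.39). The gene *ube2t*, the E2 of the Fanconi anemia pathway of DNA crosslink repair, had ratios of 0.47, 0.23, -0.39 and -0.10 (mean 0.05 ± 0.38, adjusted p = 0.79). With spike-in scaling its mean was -0.44 and it was called lower. The overlapping probes gave nearly the same value, since the means of the 5 *ube2t* probes lay between 0.04 and 0.06 and those of the 5 *ube2c* probes between 0.14 and 0.27. Among the F-box genes, *fbxo5* had a like order of arrays. It encodes EMI1, an inhibitor of the APC/C, and its ratios were 0.51, 0.59, -0.46 and 0.08 (mean 0.18 ± 0.48, adjusted p = 0.43).

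A list of 15 other tested genes of cell division moved over the arrays with these members. Their median ratios were 0.62, 0.36, -0.44 and -0.27, high on arrays 1 and 2 and low on arrays 3 and 4. None of the 15 was called with limma, beside 28.6% of all tested genes, and 0 had an unadjusted p below 0.05. The test of the study's methods and treat called 0 as well. Both channels contributed to the array differences. Relative to its own mean in the HMB channel, the signal of *ube2c* was 0.43, 0.08, -0.43 and -0.07 on the log2 scale. In the control channel it was -0.11, -0.21, 0.12 and 0.19, which spans 0.40 against 0.86 in the HMB channel. The signal of *fbxo5* spanned 0.34 in the control and 0.83 in the HMB channel. Over the cell division list, the median SD was 0.21 in the control and 0.39 in the HMB channel, beside 0.12 and 0.15 over all tested genes. The medians of the fibroblast list, 0.76, 0.46, 0.80 and 0.59, did not split the arrays in this way. Nor did those of the myogenic list, -1.18, -1.05, -0.80 and -1.14. Single genes did. The ratios of *pdgfra* (1.98, 2.35, 1.68 and 1.28) and *myf6* (-0.63, -0.53, -1.15 and -1.05) were higher on arrays 1 and 2. Those of *col1a2* (-0.39, -0.55, 0.35 and -0.12) and *col3a1* (0.08, 0.14, 0.71 and 0.34) were higher on arrays 3 and 4. The other tested genes of both lists did not split so.

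**Figure D3:**
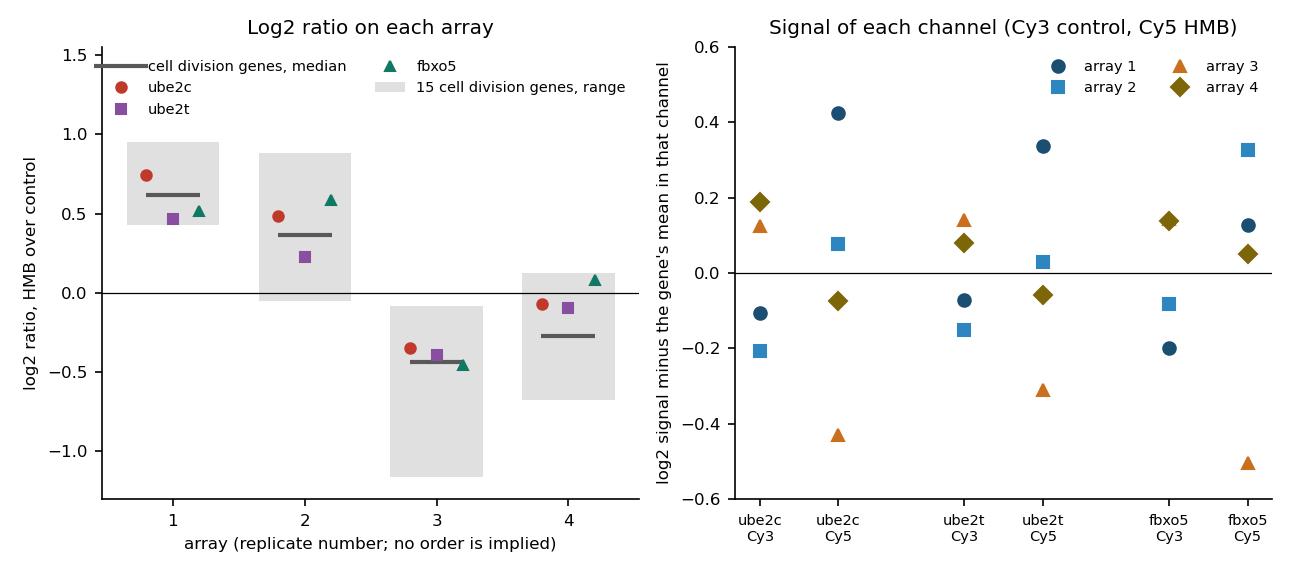
Left, log2 ratio (HMB over control, vertical axis) of *ube2c*, *ube2t* and *fbxo5* on each of 4 arrays beside the range (grey) and median (line) of 15 cell division genes. Right, log2 signal of each gene in the control (Cy3) and HMB (Cy5) channel, minus its mean in that channel, with 1 symbol per array. The ratios are above 0 on arrays 1 and 2, and the lowest of each gene is on array 3, at -0.34, -0.39 and -0.46.

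The largest rise among the F-box genes was that of *fbxo7*, which encodes a regulator of the proteasome and of the removal of damaged mitochondria and is mutated in a familial form of parkinsonism. Its ratios were 0.51, 0.69, 0.70 and 0.53, all above the FC threshold, with a mean of 0.61 ± 0.10 (FC 1.52, adjusted p = 9.5e-04). With spike-in scaling its mean was 0.12 and it was not called. The gene *fbxo8*, whose product carries a Sec7 domain, had ratios of 0.50, 0.43, 0.25 and 0.43 (mean 0.40 ± 0.11, adjusted p = 0.0048), but the mean turned to -0.083 with spike-in scaling and was 0.37 and not called without array 1. *Fbxl2* encodes a membrane-bound receptor. Its ratios were 0.13, 0.35, 0.48 and 0.63 (mean 0.40 ± 0.21, adjusted p = 0.016), and the mean turned to -0.090 with spike-in scaling. Its call was the least secure of the 3, since it was lost without array 3 (0.37) and without array 4 (0.32), with the test of the study's methods and when dim probes were kept, among others.

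Of the F-box genes, 6 were lower with HMB. The mean of *fbxl19*, which encodes a receptor for the IL-33 receptor ST2, was -0.55 ± 0.18 (FC 1.46, adjusted p = 0.0035). Its ratios of -0.72, -0.68, -0.33 and -0.47 were all negative, and the call held without each of the arrays. With normexp and loess the mean was -0.14. *Fbxo31*, a receptor for cyclin D1, had ratios of -0.47, -0.31, -0.43 and -0.45 (mean -0.41 ± 0.07, adjusted p = 0.0033) and was called without each of the arrays as well. Its call was lost with median centering in place of lowess (-0.36), with normexp and loess (-0.22) and with treat. *Fbxo9*, whose product acts on components of mTOR signaling, had ratios of -0.51, -0.23, -0.38 and -0.50 (mean -0.41 ± 0.13, adjusted p = 0.0062). Without array 1 or array 4 its mean was -0.37 or -0.38, below the FC threshold. The call of *fbxo9* was also lost with median centering (-0.28), with normexp and loess (-0.33) and with treat.

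The ratios of *fbxo3* were -0.36, -0.59, -0.52 and -0.24 (mean -0.43 ± 0.16, adjusted p = 0.0066), and without array 2 the mean was -0.37 and not called. FBXO3 is known as a receptor through which FBXL2 itself is degraded. Here *fbxo3* was called lower and *fbxl2* higher on the deposited scaling, but both had negative means with spike-in scaling. These are RNA ratios, and a link between the pair was not tested. The remaining 2 genes were uneven. *Fbxo17*, of the family of sugar-recognizing F-box proteins, had ratios of -0.08, -0.94, -0.52 and -0.52 (mean -0.52 ± 0.35, adjusted p = 0.022). *Fbxo48* had ratios of -0.06, -0.19, -0.85 and -0.66 (mean -0.44 ± 0.38, adjusted p = 0.045). Array 1 was near 0 in both genes. Each call was lost without array 2, 3 or 4, with means of -0.38, -0.51 and -0.51 for *fbxo17* and of -0.52, -0.30 and -0.36 for *fbxo48*. Altogether 3 F-box genes were called lower without array 2.

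By structural class, 7 of 18 FBXO genes (38.9%) and 2 of 11 FBXL genes, which carry leucine-rich repeats (18.2%), were called, beside 28.6% of all tested genes. A difference between the classes was not tested. Among the FBXW genes, whose products bind targets through WD repeats, 0 of 6 were called with limma, the methods' test or treat, although 2 had an unadjusted p below 0.05. These were *fbxw5* with a mean of -0.30 ± 0.10 and *fbxw7* with -0.37 ± 0.28. *Fbxw7*, the receptor for cyclin E and MYC, had ratios of -0.69, -0.30, -0.47 and -0.02 and an FC of 1.29, just short of the threshold (adjusted p = 0.038). On the other side of it, the smallest called changes were those of *fbxl2* and *fbxo8*, with FC values of 1.32 each. The ratios of *fbxw8*, a partner of CUL7, were -0.70, -0.16, 0.34 and -0.54 (mean -0.26 ± 0.46). Those of *fbxl17*, which removes wrongly paired BTB proteins, were -0.18, 0.55, 0.70 and 0.11 (mean 0.29 ± 0.40). Both genes were dim, since *fbxw8* was well above background on 3 arrays in the control and 2 arrays in the HMB channel, and *fbxl17* on 3 arrays in each. The mean of *fbxw8* was called lower without array 3 (-0.46), with median centering in place of lowess (-0.52) and with spike-in scaling (-0.75), and it was -0.05 with normexp and loess. That of *fbxl17* was called higher without array 1 (0.45), but it was 0.08 with median centering, 0.05 with normexp and loess and -0.19 with spike-in scaling. The 26 F-box genes not called had means between -0.37 and 0.29. Over all 59 tested members, 6 had an SD above the 90th percentile of all tested genes (0.36), close to the share that this percentile sets.

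Several genes had more than 1 tested probe, which allowed a look at how far a value belonged to the gene. Of 19 such genes, 12 had at least 1 pair of probes that overlap, and such pairs are not fully separate measurements. The overlap was small in some genes, such as *fbxw11*, and in others, such as *fbxo48*, not every pair overlapped. The means of the probes of a gene differed by 0.02 in *fbxo42* and by up to 0.38 in *fbxl2*. In 3 genes part of the probes was called, namely *ube2b*, *fbxl2* and *fbxo48*. The probes of *fbxl2* had means of 0.62, 0.24 and 0.33, and the first was called. Those of *fbxo48* were -0.34, -0.57 and -0.41, and the lowest was called. Over all tested probes, 28.3% were called, and 14 of 94 tested probes of the members were among them.

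**Figure D4:**
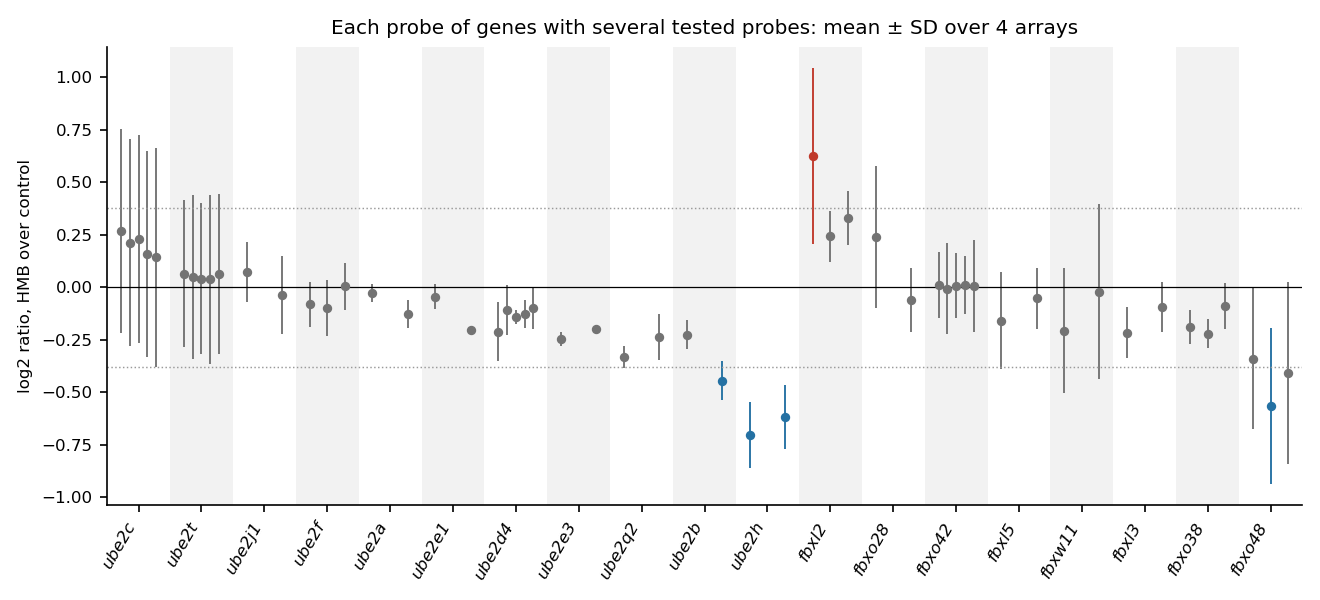
Mean log2 ratio (HMB over control, vertical axis) and SD over 4 arrays of each tested probe of the 19 members with several probes. Red and blue mark probes called higher and lower, and dotted lines an FC of 1.3. Probes of a gene lie within 0.38 of each other, and both *ube2h* probes are called lower.

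The partners of the E2 and F-box proteins were examined as lists. Their counts stand beside the 28.6% of all tested genes that limma called. Of 9 E1 genes and their partners that passed the filter, *uba6* was called higher and *nae1* lower. *Uba7* is not counted, since only the bound above is given for it. *Uba6*, the alternative ubiquitin E1, had a mean of 0.63 ± 0.14, whereas *ube2z*, the E2 that takes ubiquitin from UBA6, had a mean of 0.13 ± 0.14. The main ubiquitin E1 gene *uba1* had a mean of -0.09. The NEDD8 E1 subunit gene *nae1* was lower, with a mean of -0.54 ± 0.11, and its catalytic partner *uba3* had a mean of -0.36 and was not called. None of 3 tested ubiquitin genes was called with limma, the methods' test or treat, although 2 had an unadjusted p below 0.05. One of these was *ubc*, with a mean of 0.23 ± 0.10.

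In the SCF core, 1 of 4 tested genes was lower. This was *skp1*, the adaptor that binds every F-box protein, with ratios between -0.45 and -0.29 and a mean of -0.38 ± 0.07 (adjusted p = 0.0044), with an FC just above the threshold. *Cul1*, *rbx1* and *nedd8* had means of -0.32, -0.07 and -0.21. Of 6 tested genes with an E2 fold but another name, *aktip* was lower, at -0.59 ± 0.17. Among 5 tested F-box genes with another name, 0 were called with limma, the methods' test or treat and 1 had an unadjusted p below 0.05, *btrc* with a mean of 0.34. The cyclin F gene *ccnf* had ratios with a mean of -0.18 ± 0.57.

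A further 21 probes belonged to these families by their description but carried an accession in place of a symbol. Of the 15 that were tested, 0 were higher and 1 was lower, a probe described as E2K with a mean of -0.40. Another E2K probe of the same transcript had a mean of -0.35 and was not called. The probe named *ube2k*, also not called, had a mean of -0.28. A probe described as E2 D2-like was below 0 on every array, with a mean of -0.34 (limma, adjusted p = 0.0063), and was not called.

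The members that were not tested were mostly F-box genes. Of 19 untested members, 12 had no probe well above background in either channel on any array, among them *ube2u*, the single untested E2 gene, and *fbxl16*, *fbxo10*, *fbxo24*, *fbxo41* and *fbxo43*. The other 7 were above background on some arrays, such as *fbxo44* on 3 arrays in the control and *fbxo15* on 3 arrays in the HMB channel. All 6 FBXW genes, 11 of 16 FBXL genes and 18 of 31 FBXO genes were tested. With no filter on dim probes, 1 of the 19 was called lower and 0 were called higher. This was *fbxo16*, named after its values were seen, which was well above background on 1 array in the control and on none in the HMB channel, so no fold is given for it.

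**Figure D5:**
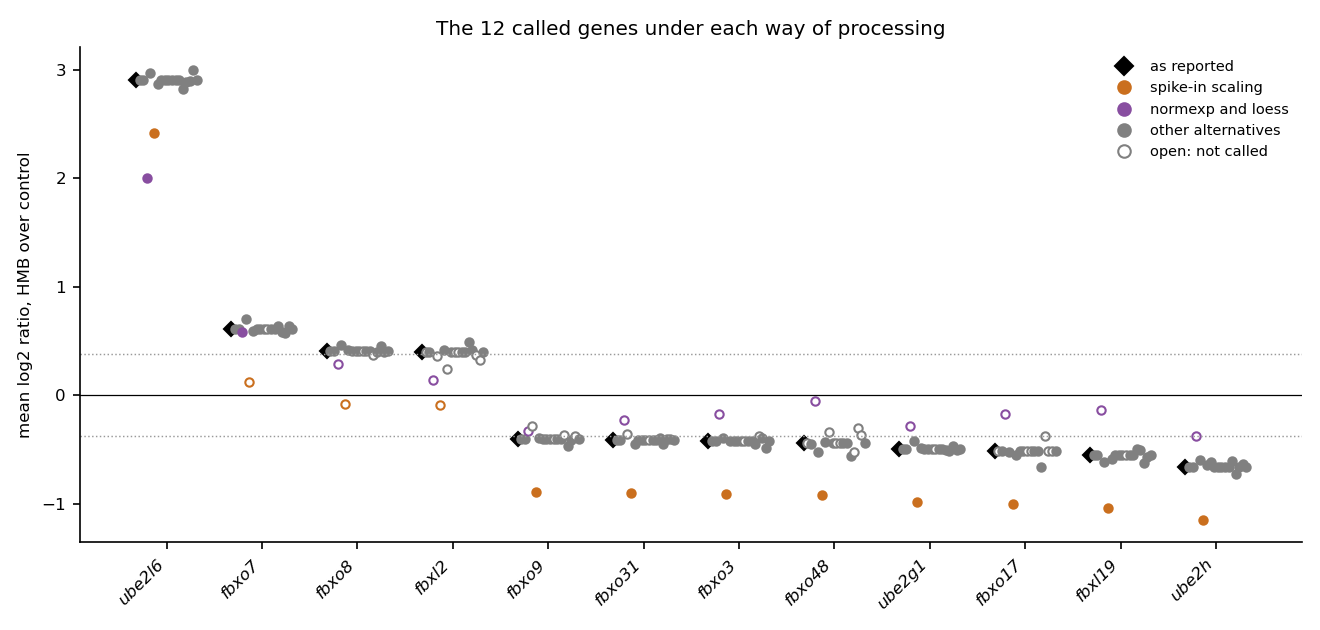
Mean log2 ratio (HMB over control, vertical axis) of the 12 called members as reported (diamonds) and under 17 alternatives of the processing or left-out arrays (circles), where open circles are not called and dotted lines mark an FC of 1.3. *Ube2l6* stays between 2.00 and 3.00, spike-in scaling (orange) lowers all values by 0.49 and turns *fbxo8* and *fbxl2* negative, and normexp with loess (purple) leaves *ube2l6* and *fbxo7* called.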

How the data were processed

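Horse gene expression arrays (Agilent) with 2 colors were read from the scanner files that the authors deposited. The deposited intensity values are spot brightness per channel, before and after background subtraction and a linear and lowess step within each array. The deposited log10 values are ratios of Cy5 over Cy3, written by Feature Extraction (version 10.10.1.1 per the file headers), and the authors' table holds the same log10 ratios. The log2 values were computed here from the deposited log10 ratios. Signals at background had been replaced by a surrogate, which compresses ratios of dim probes.

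Controls were left out, as were spots with a mark for uneven pixels or for being an outlier (13 on arrays 1 to 3, 35 on array 4, and 0 were saturated). Probes were averaged per gene if every array had Cy3, Cy5 or both well above background and 3 or more arrays gave a ratio. Ratios were tested against 0 in R 4.3.3 with limma 3.58.1 over all 14107 genes, and over 24880 probes, with Benjamini-Hochberg adjustment (0.05, FC of 1.3). Each array was 1 replicate, and nothing says that these were separate animals, so p-values measure the spread between these samples. The number of arrays limits precision. The fit was tested on simulated data.

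Full values are given for called members, members the study names, the 5 members with the highest SD and members called in part of their probes. Other values are named where they complete a group. The members and lists were chosen with earlier results of these data known. Alternatives were other filters, background and scaling methods, a correction for probe GC content, the brightest probe, marked spots kept, the methods' t-test, treat, a trend with robust moderation, the authors' table and each array left out. A filter on the same channel was added after seeing the data. RefSeq held 75 of 78 symbols. The values of some single genes are not reported here. The miRNA, RT-qPCR and protein data of the study were not analysed here.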

Additional observations from a re-analysis of the deposited data

Results flagged for a closer look

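Of 61 sets of array values examined (59 genes and both family medians), 1 had an array far from the others, where chance alone marks about 1 in 20 such sets. *Fbxl8* had ratios of -0.10, -0.04, -0.04 and -0.55, where the gap of array 4 to the nearest array was 0.886 of the whole range, above Dixon's critical value for a group of 4 (mean -0.19 ± 0.25, not called).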

How the results depend on the processing

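Of 204 recomputed values of the 12 called members, 158 kept their direction and call, 44 were no longer called and 2 turned. Normexp with loess gave 0 E2 genes lower, 1 F-box gene higher, 0 F-box genes lower and 1799 genes called in all, with medians of -0.0496 (E2) and -0.0242 (F-box). At an unadjusted p below 0.05 it gave 7 E2 and 4 F-box genes lower. With treat, 1 E2 gene was lower, 0 F-box genes were higher, 0 were lower (1 each at an unadjusted p below 0.05) and 1524 genes were called. With spike-in scaling, 19 of 24 E2 genes were lower, 0 F-box genes were higher (0 at an unadjusted p below 0.05) and 26 of 35 were lower. Over all 14107 tested genes, 10378 were called (73.6%), of which 9728 were lower. The medians were -0.58 (E2) and -0.60 (F-box). This scaling shifts all genes of an array by 1 constant, so the place of the members relative to the median of all genes cannot change. Spike-in scaling left 57 of the 59 member means below 0, beside 36 as reported, and the median of all tested genes was then -0.55. The means that turned included -0.44 for *ube2t*, now called lower, and -0.083 for *fbxo8* and -0.090 for *fbxl2*, no longer called. Those of *ube2c* (-0.29), *fbxo5* (-0.31) and *fbxl17* (-0.19) turned without a call. Median centering without lowess gave medians of -0.0230 (E2) and -0.0718 (F-box). The F-box median was -0.0761 with no filter on dim probes and -0.15 with both channels required, with the brightest probe and with 1 same channel required. The methods' t-test called 2722 genes, among them 1 E2 gene higher and 2 lower, and 2 F-box genes higher and 4 lower. The cause of these differences was not tested.

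With each array left out in turn, 1 E2 gene was higher and 2 were lower each time, 2 to 3 F-box genes were higher and 3 to 5 lower, and 3742 to 4053 genes were called. The E2 median ran from -0.10 to -0.08, the F-box median from -0.102 to -0.0632, the latter without array 4, and their difference from -0.03 to 0.02. Both groups share each array, so the test of the ratio against 0 is already paired by array. The brightness of a probe limits what could be tested, since signals at background hold a surrogate.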
